A study of Mus musculus with 6 samples.

Results

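The genes described here encode secreted and membrane-anchored proteases that cut the extracellular matrix, and proteins of the families that restrain proteases. They were taken by symbol from the tables of RNA abundance. Every row with a single symbol of the matrix metalloproteinases (Mmp), the ADAMTS proteases, the tissue inhibitors of metalloproteinases (Timp) or the serpins was included, 106 of the 22988 rows used. They comprise 23 Mmp, 19 Adamts, 4 Timp and 60 serpin genes. RNA was measured in C2C12 cells, a line of mouse myoblasts whose strain label is C3H, in 3 libraries with no replicate. The siNS starved library came from cells given the siRNA named siNS and moved for 4 h into Hank's balanced salt solution, a medium without serum or amino acids. The siFoxk1 non-starved library came from cells given siRNA against Foxk1, a forkhead transcription factor, in growth medium with fetal bovine serum. The siNS non-starved library, in the same growth medium, is the control of both. The study asked how starvation and depletion of Foxk1 change gene expression.

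Matrix metalloproteinases are zinc enzymes that cut collagens, fibronectin and other matrix proteins. Most are secreted as inactive precursors, and the membrane-type enzymes stay on the cell surface. TIMPs bind their active site. ADAMTS proteases trim procollagens or cut proteoglycans such as aggrecan and versican. Most serpins trap serine proteases in a covalent complex and are used up by it, although some serpins inhibit nothing and serve as chaperones or signals. In muscle, these enzymes are known from the remodelling of the basement membrane during regeneration and from the movement of myoblasts through matrix.

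Levels are given as FPKM, fragments scaled to transcript length and to sequencing depth, with the authors' 95% interval of each library in parentheses. Since FPKM is per length, levels can be set beside each other between genes. A difference from the control is log2((FPKM + 1)/(control FPKM + 1)), and 2-fold means at least 1 in size on that scale. Where the intervals of a pair of libraries do not overlap, the libraries are called apart. With 1 library per group, no spread between replicates could be measured, so no difference was tested and each one describes these libraries rather than the conditions. In RNA from whole cultures, fewer cells of a type and less RNA per cell cannot be told apart.

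The Foxk1 transcript itself stood at 5.15 (4.29 to 6.02) FPKM in the knockdown library against 9.09 (7.76 to 10.4) FPKM in the control, a ratio of 0.567, and at 16.1 (13.3 to 18.9) FPKM in the starved library, a ratio of 1.77, apart in both. Myoblast markers were present in every library, with 9 of 10 listed genes at 1 FPKM or more and Des, which encodes desmin, at 403, 520.02 and 485 FPKM in the starved, knockdown and control libraries. Others on that list differed. Myod1 was at 10.7 FPKM in the starved library against 70.1 FPKM in the control, apart, and Myog was at 6.02 FPKM after starvation and 45.4 FPKM after knockdown, against 14.2 FPKM in the control, apart in both. Musk was higher apart in both comparisons and Myf5 in the starved library. The 11 listed markers of differentiated myotubes summed to 52.4 FPKM in the starved, 241 FPKM in the knockdown and 63.5 FPKM in the control library. In the knockdown library 8 of the 9 expressed myotube markers were higher with intervals apart, against 8.79% of all 11562 rows at 1 FPKM or more in any library. In the starved library 0 of 9 were, against 12.0% of those rows. None of 5 endothelial markers reached 1 FPKM. Of 6 macrophage and leukocyte markers found, Cd14 and Cd68 reached 1 FPKM, the list summed to 14.97, 7.65 and 10.7 FPKM in the starved, knockdown and control libraries, and Ptprc, the pan-leukocyte marker, was below 0.1 FPKM in all 3. Of 7 adipocyte markers, Cebpa, Pparg and Lpl reached 1 FPKM and the list summed to 28.5, 31.6 and 22.3 FPKM, with Plin1 listed at 0 in all 3 libraries. Cebpa was higher apart in both comparisons and Lpl in the knockdown library. Of 8 bone and cartilage markers 2 reached 1 FPKM, and the list summed to 18.7, 44.8 and 46.5 FPKM. Those were Dmp1 and Sox9, which after starvation were lower apart by 2-fold or more, and Dmp1 was higher apart in the knockdown library. The part of these marker shifts in the protease results was not tested.

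Of the 106 genes, 34 reached 1 FPKM in any library, 27 were listed at 0 in all libraries and 45 lay between. The 4 collagenase rows (Mmp1a, Mmp1b, Mmp8 and Mmp13) and matrilysin (Mmp7) stayed below 1 FPKM, and so did Mmp9, gelatinase B, at 0.0747 FPKM in the starved, 0.391 FPKM in the knockdown and 0.0724 FPKM in the control library. None of 22 serpins of clade a, which holds the plasma antiproteases of the liver, passed 0.123 FPKM. Just below the limit of 1 FPKM were Serpinb9c, at 0.943 FPKM in the starved library, and Serpine3, at 0.858 FPKM in the knockdown library. Just above it were Adamts16, at 1.06 FPKM, and Serpinc1, which encodes antithrombin, at 1.34 FPKM, both in the knockdown library. Adamts16 and Serpinc1 were below 1 FPKM in the control and entered only through the knockdown library, so they had to be higher there.

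A few genes carried most of the message. Mmp14, Mmp2 and Mmp11 together held 93.4% of the summed Mmp FPKM in the starved, 96.5% in the knockdown and 93.9% in the control library. Mmp14 encodes MT1-MMP, the membrane-anchored collagenase, and Mmp2 encodes gelatinase A, whose precursor MT1-MMP activates with the help of TIMP-2. Among the TIMPs and serpins the highest levels in the control were those of Serpinh1 (441 FPKM), which encodes the collagen chaperone HSP47 and inhibits no protease, Timp1 (379 FPKM) and Timp2 (366 FPKM). They ranked 181, 212 and 222 among all 22988 rows of that library. Serpinb6a, an intracellular serpin, stood at 323, 290 and 327 FPKM in the starved, knockdown and control libraries, and Serpinf1, which encodes the non-inhibitory serpin PEDF, at 281, 345 and 284 FPKM. Intervals of these last genes overlapped in both comparisons.

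**Figure D1:**
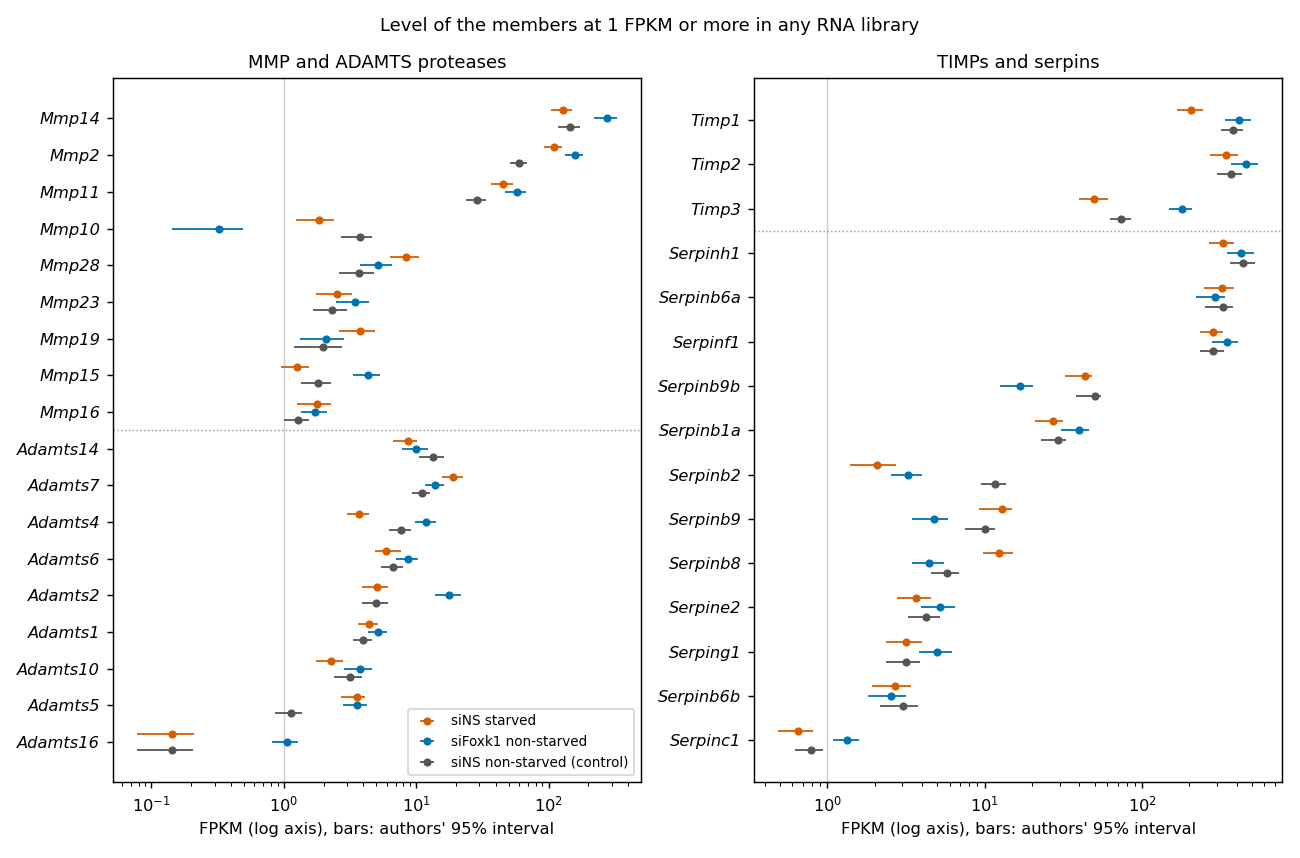
FPKM of the genes at 1 FPKM or more in any library that are reported here, on a log axis, for the siNS starved (orange), siFoxk1 non-starved (blue) and siNS non-starved (grey) libraries, with bars for the authors' 95% interval. Mmp14 and Mmp2 lead the proteases, and Serpinb2 stands at 2.06 FPKM in the starved library against 11.7 FPKM in the control.

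Summed over the family, Mmp transcripts came to 303 FPKM in the starved, 509 FPKM in the knockdown and 249 FPKM in the control library. Timp transcripts came to 596 FPKM in the starved, 1053 FPKM in the knockdown and 818 FPKM in the control library. The ratio of the sums, Mmp over Timp, was thus 0.509 after starvation and 0.484 after knockdown, against 0.305 in the control. The summed interval limits of Mmp were 249 to 358 FPKM in the starved and 413 to 604 FPKM in the knockdown library, against 204 to 295 FPKM in the control. Those of Timp were 477 to 714 FPKM and 856 to 1249 FPKM, against 680 to 956 FPKM in the control. Only the Mmp sum of the knockdown library lay apart from the control by these limits, and the other 3 contrasts overlapped. Adamts transcripts summed to 53.4, 76.6 and 52.4 FPKM, and serpin transcripts to 1054, 1270.05 and 1253 FPKM, in the starved, knockdown and control libraries. These are sums of RNA levels and say nothing of enzyme activity.

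**Figure D2:**
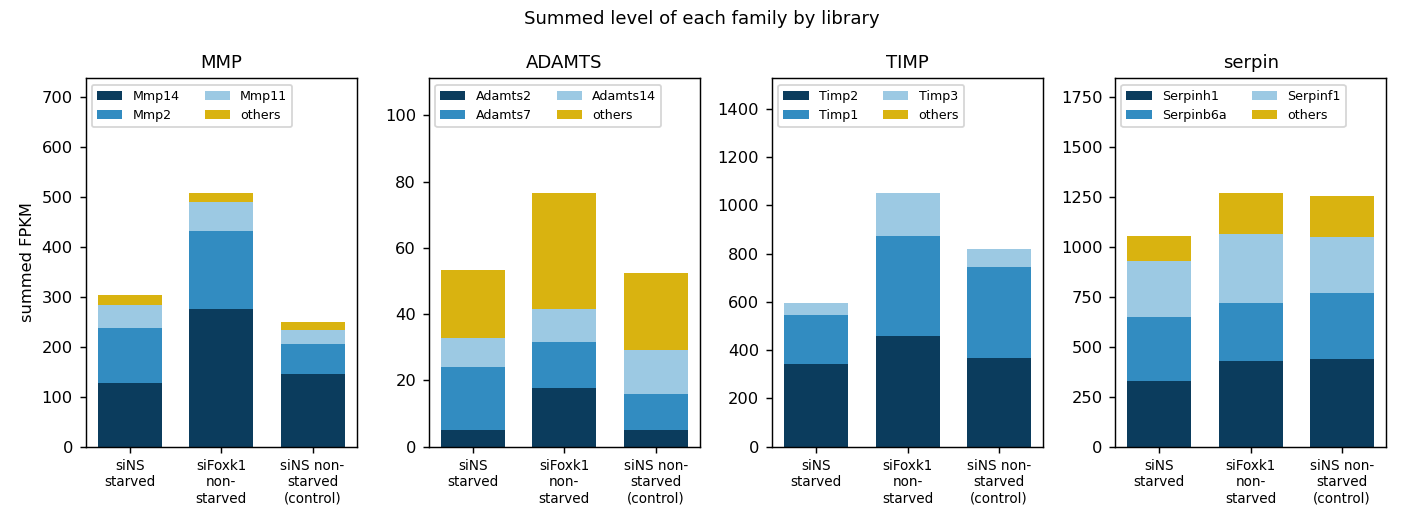
Summed FPKM of each family in the 3 libraries, with 3 genes of the family as separate segments and all other members of the family in yellow. The 3 genes are the highest of the family in each library, except for ADAMTS. There Adamts2, Adamts7 and Adamts14 are shown, and Adamts4 or Adamts6 exceeded 1 of them in every library. The Mmp bar is highest in the knockdown library (509 FPKM) and the Timp bar lowest in the starved library (596 FPKM).

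After starvation, differences with intervals apart included lower levels of the serpin gene Serpinb2 and of Timp1 and Timp3, and higher levels of Mmp2, Mmp11 and Mmp28. Of the 34 expressed genes, 6 were higher with intervals apart, where 12.0% of all 11562 expressed rows were, and 7 were lower apart, where 10.9% of all rows were. Those counts are 17.6% and 20.6% of the members. At least 2-fold higher was 1 gene, against 3.08% of all rows, and at least 2-fold lower were 2 genes, against 2.96% of all rows. The median difference was -0.11 over the members and -0.01 over all rows. Among genes at 5 FPKM or more in any library, where intervals are relatively narrow, 5 of 24 members were higher apart, as were 11.8% of 9359 rows, and 6 of 24 were lower apart, as were 11.6% of the rows.

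Serpinb2, which encodes an inhibitor of urokinase, was at 2.06 (1.39 to 2.74) FPKM in the starved library against 11.7 (9.55 to 13.8) FPKM in the control, a difference of -2.05. The protease it inhibits and its receptor were lower as well. Plau, which encodes urokinase, was at 46.8 (36.8 to 54.9) FPKM in the starved library against 123 (98.2 to 140) FPKM in the control, and Plaur, the urokinase receptor, at 39.3 FPKM against 89.9 FPKM, both apart. Plat, the tissue plasminogen activator, was at 27.5 FPKM in the starved library against 27.4 FPKM in the control, with intervals overlapping, and plasminogen itself (Plg) stayed below 0.01 FPKM. Serpine2, which encodes protease nexin-1, an inhibitor of thrombin and urokinase, was at 3.67 FPKM against 4.26 FPKM, with intervals overlapping.

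Of the TIMPs, Timp1 was at 205 (166 to 244) FPKM in the starved library against 379 (317 to 441) FPKM in the control. Timp3, the TIMP that is held in the matrix and that also inhibits aggrecanases, was at 49.8 (39.6 to 60.5) FPKM against 73.9 (63.0 to 84.7) FPKM. Both were lower with intervals apart, with differences of -0.88 and -0.56. Timp2 was at 341 FPKM against 366 FPKM, with intervals overlapping, and Timp4 stayed below 1 FPKM in all libraries.

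Metalloproteinases went both ways in the starved library. Mmp2 was at 110.2 (93.1 to 127) FPKM against 59.8 (51.0 to 68.5) FPKM in the control, a difference of 0.87. Mmp11, stromelysin-3, was at 45.4 (37.0 to 53.7) FPKM against 28.7 (23.7 to 33.8) FPKM. Mmp28, epilysin, was at 8.42 (6.36 to 10.5) FPKM against 3.71 (2.60 to 4.82) FPKM, just short of 2-fold with the pseudocount of 1. Those 3 were higher apart, while Mmp14, the activator of gelatinase A, was at 128 FPKM against 146 FPKM with intervals overlapping. Mmp10, stromelysin-2, was the Mmp gene that was lower apart, at 1.83 (1.25 to 2.41) FPKM against 3.74 (2.70 to 4.64) FPKM. The other expressed Mmp genes, Mmp15, Mmp16, Mmp19 and Mmp23, had overlapping intervals, with differences between -0.32 and 0.68.

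The ADAMTS genes divided in a like way. Adamts5, aggrecanase-2, was at 3.56 (2.71 to 4.14) FPKM in the starved library against 1.13 (0.864 to 1.38) FPKM in the control, a difference of 1.10 and the sole member at least 2-fold higher. Adamts7, which cuts cartilage oligomeric matrix protein, was at 19.1 (15.7 to 22.6) FPKM against 11.02 (9.33 to 12.7) FPKM. Lower apart were Adamts4, aggrecanase-1, at 3.71 (3.02 to 4.40) FPKM against 7.68 (6.27 to 9.09) FPKM, and Adamts14, a procollagen N-proteinase, at 8.67 (6.68 to 10.2) FPKM against 13.3 (10.5 to 16.4) FPKM. The starved intervals of the other aggrecanase-group gene, Adamts1, and of Adamts2, Adamts6, Adamts10 and Adamts16 overlapped those of the control.

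Among intracellular serpins, Serpinb8, whose human form inhibits furin, was higher apart, at 12.4 (9.74 to 15.1) FPKM in the starved library against 5.74 (4.58 to 6.89) FPKM in the control. Furin itself, the protease that activates membrane-type metalloproteinases and Mmp11, was at 36.5 FPKM against 52.7 FPKM with intervals overlapping. Serpinh1 was at 326 (266 to 386) FPKM against 441 (363 to 525) FPKM, also overlapping.

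**Figure D3:**
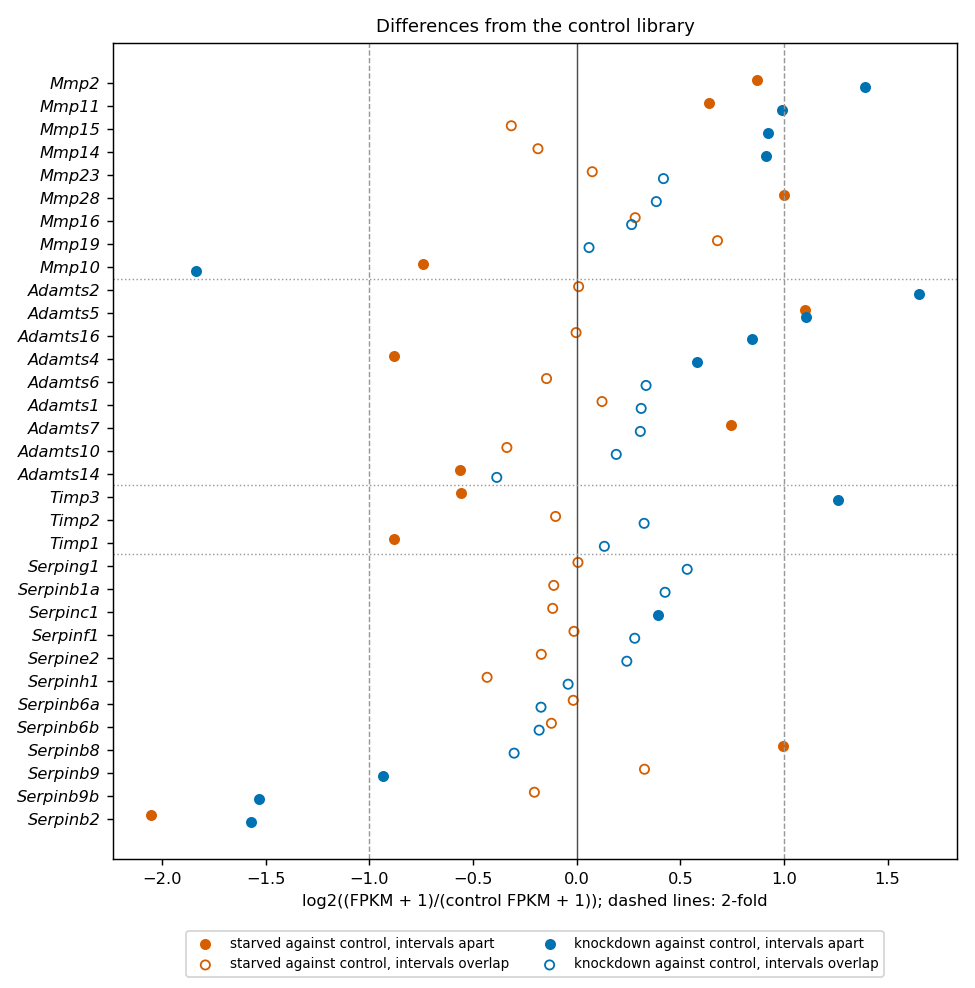
Log2 difference from the control of the expressed genes that are reported here, for the starved (orange) and knockdown (blue) libraries. Filled points have intervals apart from the control and open points overlap it, and the dashed lines mark 2-fold. Of the genes plotted, Serpinb2 lies farthest left, at -2.05 in the starved library, and Adamts2 farthest right, at 1.65 in the knockdown library.

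In the Foxk1 knockdown library, 4 of 9 expressed Mmp genes, 4 of 9 expressed Adamts genes and Timp3 were higher apart from the control, while 3 clade b serpins and Mmp10 were lower apart. Of the 34 genes, 11 were higher with intervals apart, against 8.79% of all 11562 rows, and 4 were lower apart, against 7.16% of all rows. As shares of the members, those are 32.4% and 11.8%. The 11 include Adamts16 and Serpinc1, whose direction the filter fixed. Among genes at 1 FPKM or more in the control, a filter chosen after seeing the data, 9 of 32 members were higher apart, against 8.24% of 11100 rows, and 4 were lower apart, against 7.30% of those rows. At least 2-fold higher were 4 genes, against 2.56% of all rows, and at least 2-fold lower were 3, against 1.43% of all rows. The median difference was 0.32 over the members and 0.01 over all rows. Of 24 members at 5 FPKM or more, 7 were higher apart, as were 8.57% of 9359 rows, and 3 were lower apart, as were 6.88% of the rows.

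The higher Mmp genes included the most abundant ones. Mmp14 was at 275 (221 to 329) FPKM in the knockdown library against 146 (119 to 173) FPKM in the control, a difference of 0.91. Mmp2 was at 158 (133 to 184) FPKM against 59.8 (51.0 to 68.5) FPKM, a ratio of 2.65 and a difference of 1.39. Mmp15, which encodes MT2-MMP, was at 4.33 (3.36 to 5.29) FPKM against 1.81 (1.35 to 2.28) FPKM, and Mmp11 was at 58.1 (47.0 to 68.1) FPKM against 28.7 (23.7 to 33.8) FPKM. All 4 had intervals apart. For Mmp16, Mmp19, Mmp23 and Mmp28 the intervals overlapped, with differences from 0.06 to 0.42.

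Mmp10 went the other way, at 0.327 (0.143 to 0.491) FPKM in the knockdown library against 3.74 (2.70 to 4.64) FPKM in the control. That is a ratio of 0.0874, and the difference of -1.84 was the lowest of all members in this comparison with the pseudocount of 1. With a pseudocount of 5 it was -0.71, and Serpinb9b at -1.35 and Serpinb2 at -1.01 were lower. Mmp10 lies in a row of 10 metalloproteinase genes on chromosome 9, with no other protein-coding gene between them in RefSeq (GRCm38.p6). It was the only gene of that row to reach 1 FPKM. The other expressed stromelysin gene, Mmp11, lies elsewhere, on chromosome 10, and was higher in both treated libraries.

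Promoter sequence is shown for Mmp10 because most genes of its row hold the AP-1 motif. The 100 bases before the start of Mmp10, of Mmp3 and Mmp13 from the same row, and of Serpinb8 are printed from RefSeq (GRCm38.p6, plus strand, 5′ to 3′), with capitals marking the AP-1 site, the sequence bound by Fos and Jun dimers. They lie at chr9:7502242-7502341, chr9:7445722-7445821, chr9:7272414-7272513 and chr1:107589906-107590005.
Mmp10: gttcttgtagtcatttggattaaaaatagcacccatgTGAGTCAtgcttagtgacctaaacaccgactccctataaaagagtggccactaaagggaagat
Mmp3: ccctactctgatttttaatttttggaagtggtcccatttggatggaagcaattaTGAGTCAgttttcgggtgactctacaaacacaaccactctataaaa
Mmp13: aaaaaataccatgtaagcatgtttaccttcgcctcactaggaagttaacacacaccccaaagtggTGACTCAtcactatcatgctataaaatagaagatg
Serpinb8: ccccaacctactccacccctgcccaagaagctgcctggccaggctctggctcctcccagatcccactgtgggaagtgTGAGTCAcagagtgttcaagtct
The search was for TGACTCA on both strands in the 250 bases before each start. It was found in 13 of the 82 members that have a promoter entry, against 4.46% of 32851 promoter entries. Of the 10 genes of the chromosome 9 row, 7 had it. For each motif, members were counted as genes and the background as entries, so the shares are not in like units. The 13 include Serpina1a to Serpina1d, and Mmp1a with Mmp1b, related genes that may not be independent. Of the 22 expressed members with a promoter, only Mmp10 and Serpinb8 had the AP-1 motif. Their differences were -0.74 and 0.99 in the starved library and -1.84 and -0.30 in the knockdown library. The TATA motif TATAAA, on either strand, was in 22 of the 82 members and in 7 of the 10 genes of that row, against 12.4% of all promoters. The forkhead motif GTAAACA, on either strand, was in the windows of 2 of the 82 members, Mmp10 and Mmp13. That is not above the share among all promoter entries, 3.17%. A match is a run of letters and not a binding site. Of the AP-1 genes on the list of metalloproteinase regulators, Fosl1 was at 2.25 (1.11 to 3.39) FPKM after starvation and 11.8 (6.61 to 16.9) FPKM after knockdown, against 24.6 (17.7 to 31.5) FPKM in the control. Junb was at 86.9 FPKM after starvation and 258 FPKM after knockdown, against 122 FPKM in the control, with intervals apart in both comparisons. Fosl2 was at 24.1 and 26.2 FPKM, against 14.97 FPKM in the control, and Fos at 0.624 and 4.98 FPKM, against 1.98 FPKM in the control, in the starved and knockdown libraries, apart in each. Jun and Jund had overlapping intervals in both comparisons, and Fosb stayed below 1 FPKM.

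The 4 Adamts genes that were higher apart in the knockdown library were Adamts2, Adamts4, Adamts5 and Adamts16. Adamts2, a procollagen N-proteinase, was at 17.8 (13.9 to 22.0) FPKM against 4.999 (3.90 to 6.16) FPKM in the control. Its difference of 1.65 was the highest of the members with the pseudocount of 1. That rank depended on the pseudocount. With 0.1, Adamts16 was at 2.24 and Adamts2 at 1.82, and with 5, Mmp2 was at 1.33 and Adamts2 at 1.19. The starved level of Adamts2, 5.04 FPKM, had an interval that overlapped the control. Adamts14, which has the same substrate, was at 9.94 FPKM in the knockdown library against 13.3 FPKM, with intervals overlapping. Both aggrecanases were higher apart, Adamts5 at 3.58 (2.81 to 4.28) FPKM against 1.13 (0.864 to 1.38) FPKM, and Adamts4 at 12.0 (9.77 to 14.2) FPKM against 7.68 (6.27 to 9.09) FPKM. Adamts16 was at 1.06 (0.818 to 1.29) FPKM against 0.144 (0.0782 to 0.206) FPKM. It entered the expressed genes only through the knockdown library, so its direction was fixed by the filter. For Adamts4 the starved value, 3.71 FPKM, lay below the control and the knockdown value above it. Adamts1, Adamts6, Adamts7 and Adamts10 had overlapping intervals.

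Timp3 was at 178 (149 to 207) FPKM in the knockdown library against 73.9 (63.0 to 84.7) FPKM in the control, a ratio of 2.41 and a difference of 1.26. Timp1 stood at 416 FPKM against 379 FPKM and Timp2 at 459 FPKM against 366 FPKM, both with intervals overlapping. The starved value of Timp3, 49.8 FPKM, lay on the other side of the control, with intervals apart as well. Plau and Plaur had overlapping intervals, Plau at 139 FPKM against 123 FPKM and Plaur at 85.0 FPKM against 89.9 FPKM. F2r, which encodes the thrombin receptor PAR1, was at 185 (149.9 to 219) FPKM in the knockdown library against 48.3 (39.8 to 56.6) FPKM, and at 25.8 FPKM in the starved library, apart in both.

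Clade b serpins, most of which act inside cells, made up 7 of the 13 expressed serpins. They accounted for the 3 serpins that were lower apart in the knockdown library, where 7.16% of all rows were. Serpinb2 was at 3.27 (2.53 to 4.02) FPKM against 11.7 (9.55 to 13.8) FPKM, a difference of -1.57. Serpinb9b was at 16.8 (12.5 to 20.4) FPKM against 50.4 (38.04 to 54.8) FPKM, and Serpinb9, the mouse inhibitor of granzyme B, at 4.77 (3.47 to 5.89) FPKM against 10.03 (7.47 to 11.7) FPKM. In the starved library Serpinb9b and Serpinb9 were at 43.7 and 12.8 FPKM, with intervals overlapping the control. The Serpinb9 genes are close copies in 1 cluster on chromosome 13, with Serpinb1b between Serpinb9b and Serpinb9c, so reads may be shared between them and the value of each copy is uncertain. All 7 Serpinb9 rows had their lowest value in the knockdown library, but with reads possibly shared they are not separate observations. The share of all rows with their lowest value there was not computed. The 5 copies below 1 FPKM lay between 0.00775 and 0.0415 FPKM there, against 0.0406 to 0.37 FPKM in the control, with intervals apart for 2 of them. In the starved library these copies lay between 0.0939 and 0.943 FPKM. Only Serpinb9c was apart from the control there, at 0.943 (0.561 to 1.35) FPKM against 0.0836 (0 to 0.167) FPKM.

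**Figure D4:**
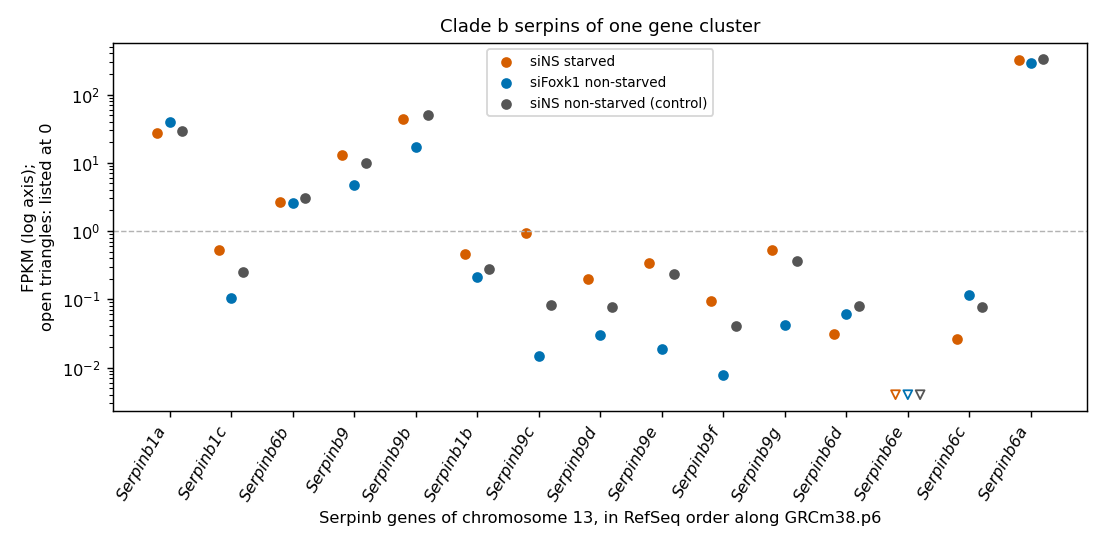
FPKM (log axis) of the 15 member clade b serpins of chromosome 13 in their RefSeq order, for the starved (orange), knockdown (blue) and control (grey) libraries. Open triangles mark values listed at 0, and the dashed line is at 1 FPKM. Serpinb9h, which lies in the same span, is not among the member rows and is not shown. Every Serpinb9 copy shown has its lowest point in the knockdown library, as have Serpinb6a, Serpinb6b, Serpinb1b and Serpinb1c. Serpinb6a lies between 290 and 327 FPKM.

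Among the neighbouring clade b genes, Serpinb6a, Serpinb6b, Serpinb1b and Serpinb1c also had their lowest value in the knockdown library, with intervals overlapping those of the control. Serpinb1b and Serpinb1c stayed below 1 FPKM in all libraries and enter no count. Serpinb1a, an inhibitor of neutrophil proteases, was at 39.8 FPKM in the knockdown library against 29.4 FPKM, with intervals overlapping. Serpinb8 was at 4.47 FPKM against 5.74 FPKM. Of the secreted serpins, Serpinc1 was higher apart, at 1.34 (1.09 to 1.60) FPKM against 0.786 (0.629 to 0.946) FPKM. Like Adamts16, it entered only through the knockdown library, so the filter fixed its direction. Serping1, which encodes the C1 inhibitor of complement, was at 5.01 (3.82 to 6.17) FPKM against 3.16 (2.35 to 3.91) FPKM, and Serpinh1 at 428 FPKM against 441 FPKM, both overlapping.

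On the list of other genes of pericellular proteolysis, with plasminogen activators, their receptors, proprotein convertases and clearance receptors, 23 of 38 genes found were expressed. In the starved library 2 of the 23 were higher apart, against 12.0% of all rows, 6 were lower apart, against 10.9% of all rows, and the median was -0.17. In the knockdown library 6 of the 23 were higher apart, against 8.79% of all rows, 1 was lower apart, against 7.16% of all rows, and the median was 0.01. Reck, a membrane-anchored inhibitor of metalloproteinases, was at 2.19 FPKM in the knockdown library against 1.32 FPKM in the control, with intervals apart, and at 1.07 FPKM in the starved library, overlapping. Lrp1, the receptor that clears proteases bound to their inhibitors, was at 62.0, 74.5 and 52.5 FPKM in the starved, knockdown and control libraries, overlapping in both comparisons. Of the matrix proteins that these enzymes cut, 22 of 30 were expressed. In the knockdown library 13 of them were higher apart, against 8.79% of all rows, 4 were lower apart, against 7.16% of all rows, and the median was 0.60. One of the higher ones was the small proteoglycan gene Dcn at 30.0 (25.1 to 34.9) FPKM against 9.64 (7.95 to 11.3) FPKM. The lower ones were Col4a1, Lamb1, Lamc1 and Nid1, which encodes nidogen-1 and was at 118 (99.6 to 136) FPKM against 226 (194 to 258) FPKM. Other basement membrane genes of the list did otherwise, with Hspg2, which encodes perlecan, higher apart at 104 (83.3 to 125) FPKM against 56.5 (47.1 to 67.3) FPKM, and Col4a2 and Lama2 overlapping. In the starved library 1 was higher apart, against 12.0% of all rows, 7 were lower apart, against 10.9% of all rows, and the median was -0.21.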

How the data were processed

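Per the file headers, the authors deposited 1 table per RNA library with a mean FPKM and the limits of a 95% interval for each gene symbol. Build mm9 and the tools Cuffdiff, Cufflinks 2.1.1, TopHat2 2.0.9 and Bowtie2 2.1.0 are named, per the submitters' processing notes, without roles. Neither the annotation, nor how the intervals were made, nor any pooling of replicates is stated in those sources. RNA was polyA-selected, per the labels' protocols. FPKM holds no read counts, so the depth stays unknown and counts were not modelled. The Zzz3 row, whose limits were out of order, was left out of 22989 rows. The row that joins Serpina3f and Serpina3g, listed below 0.1 FPKM, was not a member. One expressed member, a serpin, is counted in the totals and sums but is not reported here by name or value. ChIP region lists were not used here.

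Differences were computed on the log2(FPKM + 1) scale, which understates the change of low genes, over rows at 1 FPKM or more in any of the 3 libraries. No rescaling was applied. Both comparisons share the control. Members and lists were chosen with earlier results of these data known. The text names members at 5 FPKM or more, or at 1 FPKM or more with a 2-fold difference or intervals apart, and up to 6 of the largest differences of each list; genes beyond that rule were named after their values were seen. The scripts were tested on simulated data. Alternatives covered pseudocount, filter, scaling and threshold. The software was Python 3.11.15, numpy 2.4.6 and pandas 2.3.3.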

Additional observations from a re-analysis of the deposited data

How the results depend on the processing

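Of 68 alternative values of counts, medians and sums, including those with a filter of 1 FPKM in the control that was chosen after seeing the data, 58 stayed within 1.5 times the reported count, within the order-statistic interval of the reported median, or inside the summed interval limits. The number of members at least 2-fold higher in the starved library, reported as 1, was 3 with a pseudocount of 0.1, 0 with a pseudocount of 5, 0 with a filter of 5 FPKM, 3 after rescaling to a median ratio of 1 and 7 at a threshold of 1.5-fold. The number at least 2-fold lower there was 5 at 1.5-fold. In the knockdown library the number at least 2-fold higher, reported as 4, was 7 with a pseudocount of 0.1 and 9 at 1.5-fold. The number higher with intervals apart there was 7 with a filter of 5 FPKM, where fewer genes enter, and the median difference was 0 with no filter, where genes at 0 enter. Of 174 alternative values for single named members none changed sign where intervals were apart, and 11 moved beyond the range of their intervals, all under other pseudocounts. Rescaling changed 0 of these members' interval calls, and the median ratio of the starved library to the control before it was -0.05 on the log2 scale. No paired analysis was possible because each group has 1 library. Depth is unknown, so genes below 1 FPKM enter no count of differences, and the interval calls given for the low Serpinb9 copies rest on the authors' limits alone.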

Other observations

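The ADAM proteases, membrane-bound relatives of ADAMTS that shed cell-surface proteins, and the ADAMTS-like proteins, which lack a protease domain, had 9 of 16 genes found at 1 FPKM or more. In the knockdown library 3 were higher with intervals apart, against 8.79% of all rows, 0 were lower apart, against 7.16% of all rows, and the median was 0.07, against 0.01 over all rows. In the starved library 0 were higher apart, against 12.0% of all rows, 1 was lower apart, against 10.9% of all rows, and the median was -0.21, against -0.01 over all rows. Adam12, a protease linked to myoblast fusion, was at 9.68 (8.15 to 11.2) FPKM in the knockdown library and 1.80 (1.47 to 2.12) FPKM in the starved library, against 4.93 (4.19 to 5.66) FPKM in the control, apart in both. Adamtsl3 was at 17.4 (14.7 to 20.1) FPKM in the knockdown library against 7.74 (6.64 to 8.84) FPKM in the control. Adam19 was at 21.0 (17.7 to 24.3) FPKM against 13.5 (11.6 to 15.4) FPKM. Adam10 and Adam17, the main sheddases, had overlapping intervals in both comparisons, at 44.4 and 23.1 FPKM after starvation and 46.2 and 26.2 FPKM after knockdown, against 44.0 and 26.8 FPKM in the control.

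The regulators of metalloproteinase transcription had 19 of 25 genes at 1 FPKM or more. In the starved library 8 were lower apart, against 10.9% of all rows, 2 were higher apart, against 12.0% of all rows, and the median was -0.36, against -0.01 over all rows. One of the lower ones was Hbegf, an EGF receptor ligand, at 2.43 (1.76 to 3.09) FPKM against 19.8 (15.6 to 22.7) FPKM in the control. In the knockdown library 7 were higher apart, against 8.79% of all rows, 2 were lower apart, against 7.16% of all rows, and the median was 0.24, against 0.01 over all rows. Tgfb3, a TGF-beta ligand, was at 44.8 (37.6 to 51.9) FPKM in the knockdown library against 21.0 (17.9 to 24.03) FPKM in the control, and Etv4, an ETS factor, at 19.6 (16.4 to 22.8) FPKM against 45.8 (39.3 to 52.2) FPKM. The inflammatory cytokine genes of this list, Il1a, Il1b, Il6, Tnf and Osm, stayed below 1 FPKM in all 3 libraries.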
